A study of Gallus gallus with 144 samples.

Results

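DES, LDB3, CSRP3 and ACTA1 are genes of the sarcomere and of the Z-disc. They were grouped here as muscle genes with wide promoters in a list of peaks taken to mark chicken transcription starts. They were taken by name from the 10437 genes that carried the authors' promoter label. Each had 1 labelled peak, giving 4 of the 24969 promoter peaks. DES, LDB3 and CSRP3 were chosen by the measured widths of their promoter peaks, and all 4 genes by their role in muscle. Earlier results of these data were known, so widths, positions and downstream counts are given as a description and are not tested. A wide promoter was present in 3 of the 4 genes. The promoter peaks of DES, LDB3 and CSRP3 were 742, 335 and 138 bp wide, while that of ACTA1 was 1 bp wide.

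The peaks came from 144 CAGE libraries of 24 chickens. In CAGE, reads are meant to begin at the cap of an RNA and are taken to mark where its transcription started. Whether each unlabelled peak is such a start was not tested. Fast-growing and slow-growing birds, 12 of each, gave brain, breast, heart, kidney, leg and liver, which makes 12 groups of 12 libraries. Sex, age and line of the birds were not given in the labels. All libraries were merged by the authors into 153662 peaks with GRCg6a coordinates. No column belonged to a library, so there were no replicates, the height and depth behind a peak were unknown, and fast growth was not compared with slow growth here, nor tissue with tissue. A peak can come from any of the 6 tissues.

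The sarcomere is the contractile unit of striated muscle, and the Z-disc is the plate at each of its ends in which thin filaments of actin are anchored. ACTA1 encodes skeletal muscle alpha-actin, the main protein of the thin filament. LDB3 encodes a PDZ and LIM domain protein, also called ZASP or Cypher, that binds alpha-actinin at the Z-disc. CSRP3 encodes muscle LIM protein, a Z-disc and nuclear protein of striated muscle. DES encodes desmin, the intermediate filament protein that ties neighbouring Z-discs to each other and to the cell membrane. In CAGE data a sharp peak is commonly read as RNA starting at nearly the same base each time. A wide peak is read as starts spread over many neighbouring bases. In a pooled list without peak heights this reading was not tested.

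ACTA1 had the narrowest promoter peak of the set. The ACTA1 label sat on base 40090516 of chromosome 3, on the minus strand. A widest promoter peak of 1 bp was found for 503 of 10430 genes (4.82%), these being all genes with every labelled peak on the same sequence and strand. No unlabelled peak lay in the first 500 bp upstream of this base on either strand, and the share of all genes without one was not computed. The nearest on its own strand upstream was 33917 bp away, and the nearest on the opposite strand was a 1 bp peak 4720 bp away. The next peak downstream on the own strand began a dense run and had its representative position 508 bp away.

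DES, LDB3 and CSRP3 had wide peaks. The LDB3 peak covered bases 3104791 to 3105125 of chromosome 6, on the plus strand, and 39 of all promoter peaks were wider. The CSRP3 peak covered bases 1930603 to 1930740 of chromosome 5, on the minus strand, and 209 promoter peaks were wider. The DES peak covered bases 22174463 to 22175204 of chromosome 7, on the minus strand, and none was wider. The median promoter peak was 9 bp wide, and 1.16% of promoter peaks were over 100 bp. By gene, 2.71% of 10430 had a promoter peak over 100 bp. As width chose these genes, nothing is read from their ranks.

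**Figure D1:**
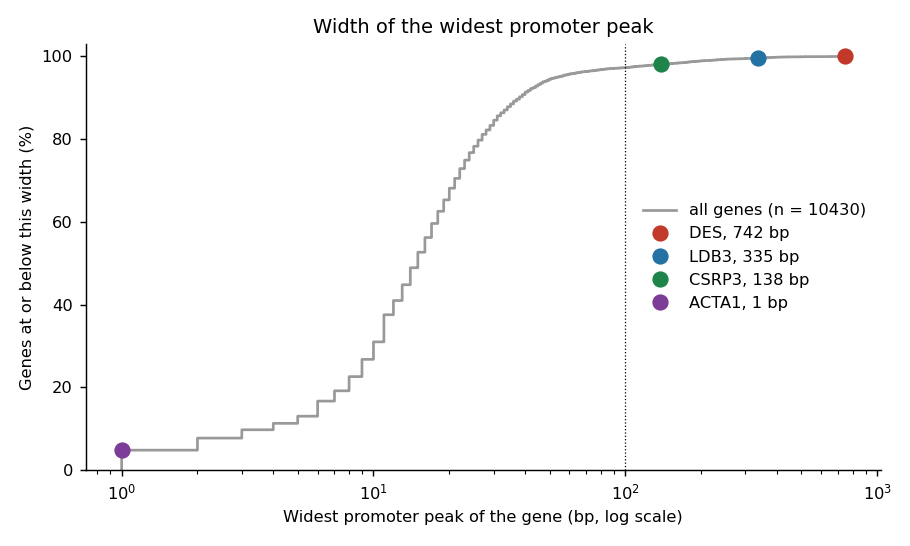
Share of genes (y axis, %) whose widest promoter peak was at or below a given width (x axis, bp, log scale), with the 4 genes marked on the curve of all 10430 genes and a dotted line at 100 bp. DES at 742 bp, LDB3 at 335 bp and CSRP3 at 138 bp lie on the flat right end, and ACTA1 at 1 bp lies at the left end.

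Each of the 3 wide peaks stood as the only labelled peak of its gene. A single labelled peak was found for 36.0% of the 10430 genes, and the 283 genes with a peak over 100 bp had a median of 1 labelled peak and a mean of 1.51. No unlabelled peak lay within 500 bp up- or downstream of the representative position of any of the 4 promoter peaks, on either strand. Downstream on the own strand, 80.0% of all genes likewise had no unlabelled peak in the first 500 bp. On the opposite strand there, all genes averaged 0.0868 peaks, so most had none either. The share of all genes was not computed for the upstream side, and nothing is read from the absence there. In DES the promoter peak itself covered the own strand to 615 bp downstream, which left no free base in that stretch. The LDB3 and CSRP3 peaks took up parts of theirs. The lack of own-strand peaks there thus follows in part from the widths that chose these genes.

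The representative position, the base inside each peak as read from an unnamed column of the list, lay in different parts of the wide peaks. In DES it was base 22175078, 126 bp from the 5′ edge and 615 bp from the 3′ edge, at 17% of the width. In LDB3 it was base 3104997, 206 bp from the 5′ edge and 128 bp from the 3′ edge, at 61.7%. In CSRP3 it was base 1930635, 105 bp from the 5′ edge and 32 bp from the 3′ edge, at 76.6%. The wide part of the DES peak thus lay downstream of the marked base, and the wider parts of the LDB3 and CSRP3 peaks upstream of it. Among the 290 promoter peaks over 100 bp, the median was 48.6% of the width, with quartiles at 28.7% and 66.0%. DES lay below the lower quartile, CSRP3 above the upper quartile and LDB3 between them. With 1 pooled value per peak, no test of these positions was possible.

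**Figure D2:**
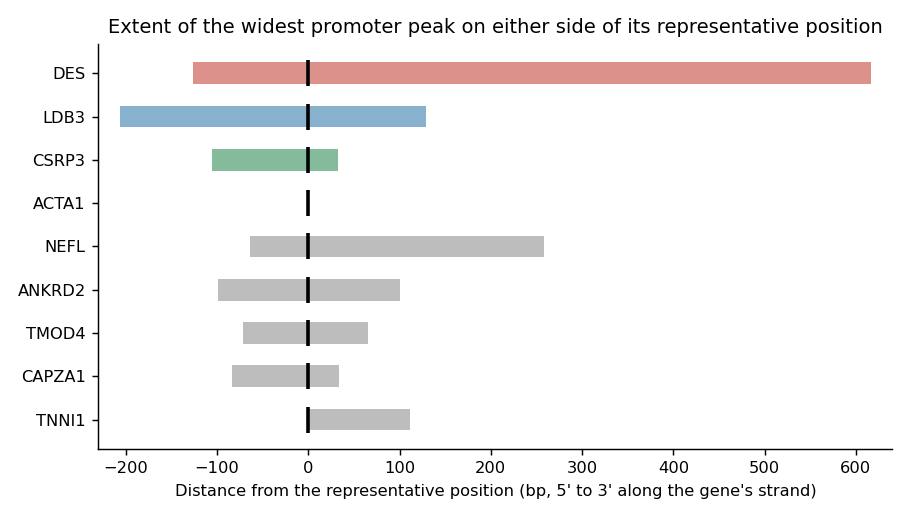
Extent of the widest promoter peak of each gene (horizontal bar) on either side of its representative position (black tick at 0), in bp along the strand of the gene. The 4 sarcomere and Z-disc genes are in colour, and the companion genes with a peak over 100 bp are in grey. The DES bar runs 615 bp to the right of the tick and 126 bp to the left, while the LDB3 and CSRP3 bars reach further to the left.

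Among related genes, wide promoter peaks were present in a few. The companion lists held 105 genes of the sarcomere and Z-disc, the actin family, intermediate filaments, LIM proteins and muscle regulation. Of these 76 had a labelled promoter, and the median of their widest peaks was 13.5 bp, against 15 bp over all genes. A peak over 100 bp was found in 5 of the 76 (6.58%, against 2.71% of all genes). Over 200 bp the shares were close, with 1 of the 76 (1.32%) against 1.1% of all genes. NEFL, the neurofilament light chain, had a 322 bp peak. ANKRD2, a stress-responsive ankyrin repeat protein of muscle, had a 200 bp peak. TMOD4, a tropomodulin that caps thin filaments, had a 138 bp peak, the same width as CSRP3. CAPZA1, a subunit of the actin capping protein of the Z-disc, had a 118 bp peak and TNNI1, slow skeletal troponin I, had a 112 bp peak. CSRP3 at 138 bp was thus the narrowest of the 3 wide promoters in the set, and TMOD4, outside the set, equalled it. NEFL and ANKRD2 were wider than CSRP3 and were not in the set either.

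Labelled relatives mostly had narrow promoter peaks. In the actin family, ACTA1 at 1 bp stood beside ACTA2, smooth muscle actin, at 1 bp, ACTB, a cytoplasmic actin, at 3 bp, ACTC1, cardiac actin, at 4 bp, and ACTG2, an enteric smooth muscle actin, at 69 bp. No peak was labelled ACTG1. These relatives were named after their values were seen. None of the 9 labelled LIM and PDZ-LIM relatives, and none of the 12 labelled muscle regulators, had a peak over 100 bp, against 2.71% of all genes. In lists this short that is near the share of all genes, so nothing is read from it. Of the 42 labelled sarcomere and Z-disc companions, 4 had such a peak (9.52%, against 2.71% of all genes). The median widest peak of these 42 was 15 bp, as over all genes, so most genes of this mixed list had no wide peak. The actins are near-identical as proteins, but their gene sequences were not compared here. The labels do not say how reads that fit several genes were handled.

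Downstream of the promoters, unlabelled peaks were counted from 500 to 20000 bp past the representative position, on the strand of the gene (own strand) and on the opposite strand. ACTA1 had 32 on its own strand and 9 on the opposite strand. DES had 31 and 6, CSRP3 had 4 and 1, and LDB3 had 2 and 0. Each of the 4 thus had more on its own strand, which was the case for 41.8% of all 10430 genes. Summed over the 4 genes there were 69 own-strand and 16 opposite-strand peaks. All genes averaged 2.43 own-strand and 1.88 opposite-strand peaks, with a median of 1 on each strand. The 4 genes were chosen with earlier results of these data known, so these counts and the ranks that follow are only a description.

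On the peaks as deposited, the 4 genes fell into 2 pairs in these counts. At least 20 own-strand peaks were found downstream of ACTA1 and DES, as in 0.959% of all genes, and 31 and 34 genes had more than they did. CSRP3 had fewer than 1519 genes and LDB3 fewer than 3140 genes. With peaks under 20 bp apart merged, DES had 20 own-strand peaks and ACTA1 11, so ACTA1 no longer had at least 20, as 0.384% of all genes then did. The order of the 4 counts also changed in a window to 50000 bp, where DES had 39 own-strand peaks, ACTA1 36, LDB3 5 and CSRP3 4. Of the 283 genes with a promoter peak over 100 bp, 16 had at least 20 own-strand peaks downstream (5.65%), among them DES, and 142 had more on the own strand (50.2%). Of the 503 genes whose widest promoter peak was 1 bp, 1 had more own-strand peaks downstream than ACTA1. The median among those 503 genes was 2.

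**Figure D3:**
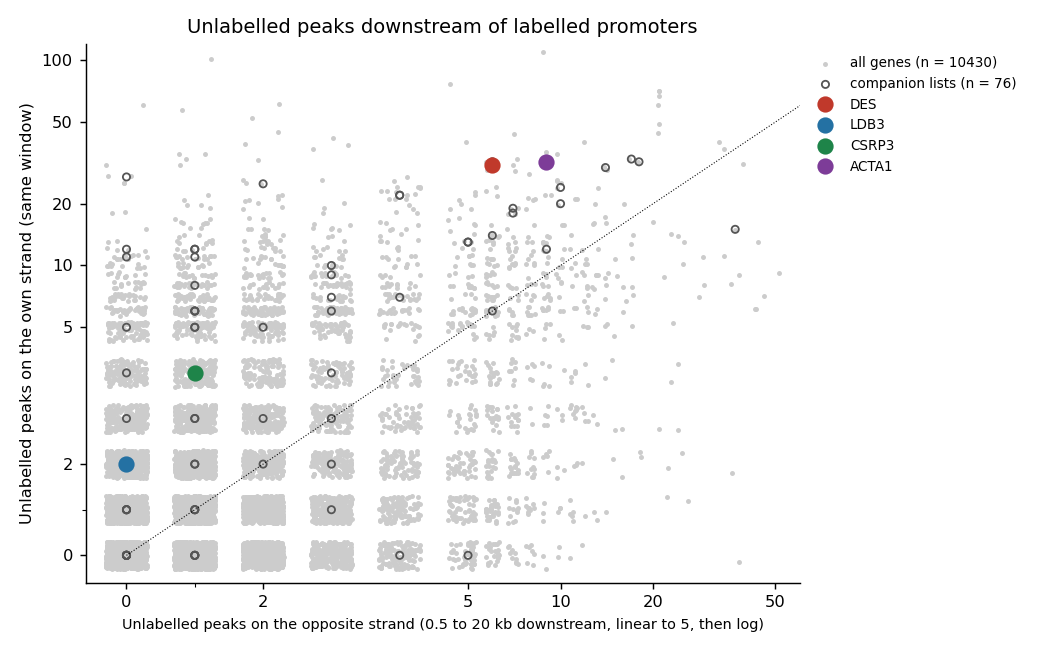
Unlabelled peaks on the own strand (y axis) against the opposite strand (x axis), both counted 500 to 20000 bp downstream of the first promoter peak, on axes linear to 5 and logarithmic above, for all 10430 genes (grey dots, jittered), the 76 labelled companion genes (open circles) and the 4 genes (coloured). The dotted line marks equal counts. ACTA1 (32 and 9) and DES (31 and 6) lie high above it, and CSRP3 (4 and 1) and LDB3 (2 and 0) lie among the bulk of genes.

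The ACTA1 run was short and dense. Its 32 own-strand peaks lay between 508 and 2017 bp downstream, and no unlabelled peak lay on either strand from there to 20000 bp. Split at gaps over 200 bp, the run fell into 3 clusters, with 4 peaks from 508 to 643 bp, 6 from 904 to 1045 bp and 22 from 1287 to 2017 bp. The median gap between neighbouring peaks was 25 bp, and the widths summed to 415 bp, or 27.5% of the 1509 bp spanned. All 9 opposite-strand peaks lay inside the same stretch, from 579 to 1990 bp, and 4 of them overlapped an own-strand peak. From 500 bp to just under 2000 bp downstream ACTA1 had 30 own-strand peaks, a count that no other of the 10430 genes reached, and 80.8% of genes had none there. This stretch was chosen after the run was seen, and the ranking within it was made only on the peaks as deposited. With peaks under 20 bp apart merged, ACTA1 had 11 own-strand peaks in the whole window to 20000 bp, and 147 genes had more. The next labelled promoter on the own strand was that of CCSAP, a centriole and spindle protein, 13454 bp downstream.

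The DES run was longer and more open. Its own-strand peaks began 1975 bp downstream, past a stretch with no unlabelled peak on either strand. The promoter peak itself covered the first 615 bp of that stretch on the own strand. Of the 31 own-strand peaks, 21 lay between 1975 and 4242 bp. Those 21 fell into 4 clusters, of 5 peaks from 1975 to 2128 bp, 6 from 2357 to 2656 bp, 5 from 3014 to 3319 bp and 5 from 4066 to 4242 bp. Their density was 9.26 peaks per 1000 bp of span, against 21.2 in the ACTA1 run. The widest of the 21 was 43 bp, and of the 4 opposite-strand peaks up to 5000 bp the widest was 80 bp, at 4367 bp. From 2000 bp to just under 5000 bp DES had 19 own-strand peaks, and 10 genes had more, GAPDH and the neurofilament genes NEFM and NEFH among them. That stretch, too, was chosen after the run was seen.

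The other 10 own-strand peaks of the DES window lay between 10762 and 19899 bp, past a promoter labelled ENSGALG00000043198 on the same strand, whose nearer peak was 5972 bp from that of DES. These 10 cannot be told apart from peaks of that other locus. With the window ended at that label, DES kept 21 own-strand and 4 opposite-strand peaks. In RefSeq's gene order on GRCg7b, DES lies between SPEG, a kinase gene of striated muscle, and DNPEP, an aminopeptidase gene. No peak was labelled SPEG, and the Ensembl identifier was not matched to a symbol.

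The peaks downstream of CSRP3 and LDB3 were few and scattered. The 4 own-strand peaks of CSRP3 lay 2392, 2820, 6256 and 8470 bp downstream and were 11, 53, 13 and 1 bp wide. Its opposite-strand peak lay at 9513 bp and was 9 bp wide. The own-strand peaks of LDB3 lay at 2713 and 12768 bp and were 2 and 7 bp wide. No labelled promoter of another gene lay inside either window. The first own-strand peak was thus 2713 bp downstream for LDB3, 2392 bp for CSRP3, 1975 bp for DES and 508 bp for ACTA1, against a median of 6484.5 bp over the 10426 genes with any such peak.

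**Figure D4:**
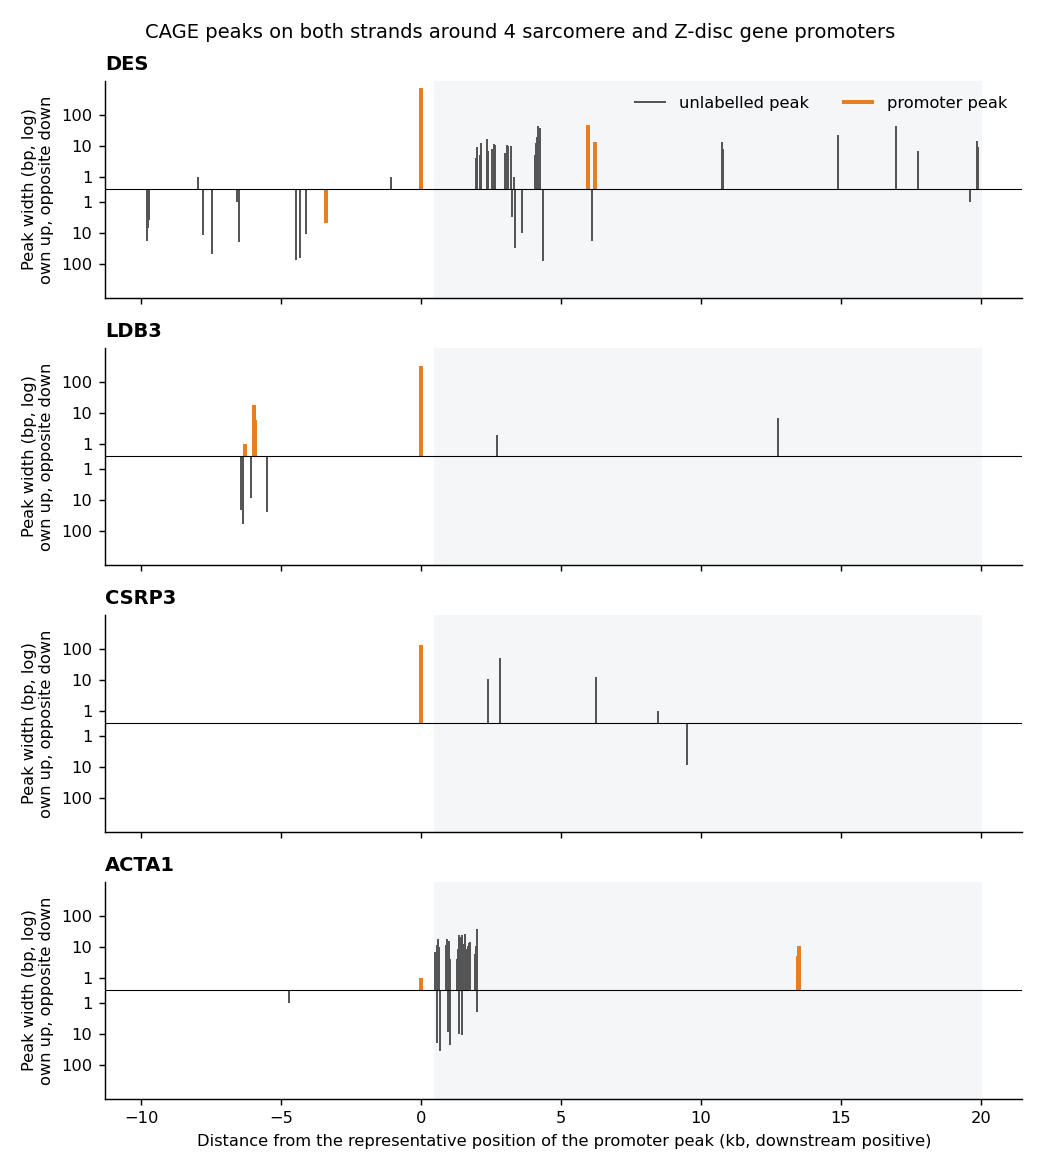
CAGE peaks around the promoters of the 4 genes, by distance from the representative position of the promoter peak (x axis, kb, downstream positive). Line height is peak width (bp, log scale), upward on the own strand and downward on the opposite strand, promoter peaks are orange and unlabelled peaks grey, and shading marks the window of the counts. The ACTA1 panel has a 1 bp promoter and a block of peaks from 508 to 2017 bp, the DES panel a 742 bp promoter and clusters from 1975 bp, and the LDB3 and CSRP3 panels are nearly empty downstream.

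**Figure D5:**
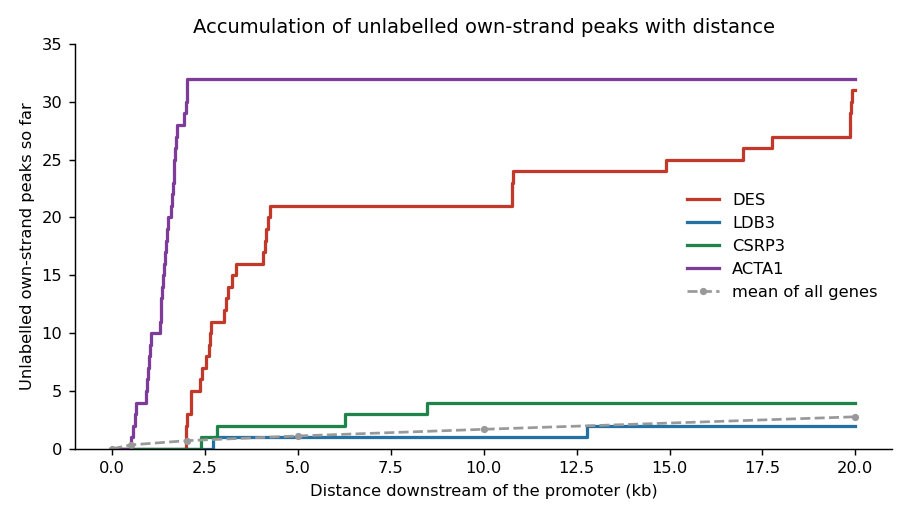
Number of unlabelled own-strand peaks reached (y axis) by distance downstream of the promoter (x axis, kb) for the 4 genes (solid steps) and the mean of all 10430 genes (dashed). The ACTA1 line climbs to 32 by 2017 bp and stays there, the DES line reaches 21 at 4242 bp and 31 at 19899 bp, and LDB3 ends at 2, near the mean of all genes.

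The downstream peaks were seldom 1 bp wide on either strand. The 69 own-strand peaks had a median width of 10 bp, and 2 of them (2.90%) were 1 bp wide. The 16 opposite-strand peaks had a median width of 11 bp, and 1 of them (6.25%) was 1 bp wide. All 128693 unlabelled peaks had a median width of 7 bp, and 27.2% were 1 bp wide. DES and ACTA1 supplied 63 of the 69, so these shares describe those loci, and neighbouring peaks of 1 run are not independent.

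Upstream the picture differed between genes. From 500 to 20000 bp upstream the 4 genes had 4 own-strand and 21 opposite-strand unlabelled peaks in all. DES accounted for 14 of the 21 and for 3 own-strand peaks. Those 14 lay on the strand of DNPEP, whose promoter stood 3381 bp upstream of DES in the opposite orientation. LDB3 had 0 own-strand and 5 opposite-strand peaks upstream, the nearest at 5493 bp, close to 3 promoter peaks labelled ENSGALG00000049085 on the own strand, of which the nearest to LDB3 lay 5933 bp upstream. CSRP3 had 1 and 0, and ACTA1 had 0 and 2. More own-strand peaks downstream than upstream were found in all 4 genes, and in 40.0% of all genes.

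Many companion genes, too, had more own-strand than opposite-strand peaks downstream, though not to the same degree in each list. Of the 76 labelled companions, 53 had more own-strand than opposite-strand peaks downstream (69.7%, against 41.8% of all genes), and 10 had at least 20 (13.2%, against 0.959%). Highest among these 10 were NEFM with 33 and 17, TNNC2, a troponin C, with 32 and 6, and TPM2, a tropomyosin, with 32 and 18. Counts like those of ACTA1 (32 and 9) and DES (31 and 6) were thus also found in related genes outside the set. In the list of 62 sarcomere and Z-disc companions, 42 were labelled, 32 of these had more on the own strand, and the medians were 5.5 own-strand and 1.5 opposite-strand peaks. Of the labelled actins, all 4 had more on the own strand, with ACTB at 12 and 0, ACTC1 at 11 and 0, ACTG2 at 6 and 3 and ACTA2 at 4 and 1. The intermediate filament genes had medians of 5 and 2, and the muscle regulators, mostly transcription factors, 1.5 and 0.5. Among the companions with wide promoters, TMOD4 had 19 and 7, TNNI1 14 and 6, ANKRD2 6 and 6, CAPZA1 2 and 1, and NEFL 15 and 37. NEFL and NEFM faced each other on chromosome 22, so their windows overlapped and can hold the same peaks. Windows also overlapped for TNNI1 and TNNT2, a troponin T, on chromosome 26. The same held for the LIM protein genes CRIP1 and CRIP2 on chromosome 8. These pairs are examples. Windows of companions were not ended at neighbouring genes in these counts. The lists were drawn up with earlier results of these data known, and no list was tested.

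The genes most like each of the 4 were sought by the distance over 4 log2 measures, namely widest promoter peak, number of promoter peaks, and own-strand and opposite-strand peaks downstream plus 1. Nearest to DES were GAPDH and PGK2, which encode glycolytic enzymes (distances 0.915 and 0.923), and EEF1A2, a translation elongation factor (1.377). GAPDH had a 710 bp promoter peak with 42 and 3 downstream peaks, PGK2 a 420 bp peak with 40 and 5, and EEF1A2 a 656 bp peak with 20 and 2. Nearest to LDB3 were HMGN4, a nucleosome-binding protein (0.009), TNFSF10, the death ligand TRAIL (0.089), and EMB, the membrane glycoprotein embigin (0.213), with promoter peaks of 333, 315 and 289 bp and 2 own-strand and 0 opposite-strand peaks each. Nearest to CSRP3 was ENSGALG00000015271 (0.332), followed by LASP1, a LIM and SH3 domain protein that binds actin (0.343), and ENSGALG00000011805 (0.391). Nearest to ACTA1 were TRIM3, a ubiquitin ligase known from neurons (0.321), ENSGALG00000005298 (0.604) and ENSGALG00000052514 (0.738), each with a 1 bp promoter peak and with 26, 21 and 19 own-strand peaks. None of the 4 was among the 3 genes nearest to another of the set. The distance was built from the widths and counts given above, so this adds no separate result.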

How the data were processed

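The authors prepared nAnT-iCAGE libraries with molecular identifiers, as the labels' protocols state. Per the submitters' processing notes, STAR 2.7.9a and UMI-tools 1.1.4 were used with GRCg6a. The deposited list is named as a robust set of DPI peaks, DPI being decomposition-based peak identification. Its settings, and how promoters were labelled, are not stated in the labels. The deposited list pools all libraries, and the score the authors deposited is 1 for every peak, as is 1 further column, so height and depth are unknown. Coordinates are printed 1-based. The list has no column names, and the representative position was read from an unnamed column. It was taken to count from the lower coordinate. Among unlabelled peaks over 20 bp it was the first base in 20.2% (plus strand) and 17.4% (minus strand), and the last base in 16.8% and 20.2%.

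Peaks were counted by representative position, 500 to 20000 bp past the first promoter peak, for 10430 genes. Another 7 genes, labelled on several sequences or strands, were left out. The counter was tested on simulated data with known answers. Sequence names were paired with chromosomes by hand, and 8059 of 8068 genes (99.9%) lay on the same chromosome in RefSeq's GRCg7b table. Python 3.11.15, numpy 2.4.6, pandas 2.3.3 and matplotlib 3.10.9 were used. Named were the 4 genes, companions with a promoter peak over 100 bp, the 3 nearest genes of each and labelled genes in their windows. Other names were added after their values were seen. The genes and lists were chosen with earlier results of these data known. No test was run, since no value belongs to a library. Other windows, merged peaks, other anchors and other width limits were tried. The planned motif and protein comparisons were not run, and sequences were not used here.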

Additional observations from a re-analysis of the deposited data

How the results depend on the processing

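No paired analysis was possible because the deposited list holds no value per library. The 4 genes kept more own-strand than opposite-strand peaks in each window, filter and anchor tried, except CSRP3 in a window to 50000 bp, with 4 and 5. That window gave 25 opposite-strand peaks over the 4 genes, against 16. With peaks under 20 bp apart merged, the own-strand sum was 37, against 69. ACTA1 then had 11 own-strand and 7 opposite-strand peaks, and 147 genes had more own-strand peaks than it, against 31 as deposited. DES had 20 and 6, and 33 genes had more. ACTA1 thus lost its count of at least 20 and its place above DES, and in the window to 50000 bp, too, DES had more (39 against 36). Merging leaves fewer peaks by its construction. Of the 76 companions, 9 had a promoter peak over 50 bp (11.8%, against 5.47% of all genes) and 1 over 200 bp (1.32%, against 1.1%), beside 5 over 100 bp. Over 200 bp, 2 of the 4 genes were wide, DES and LDB3. The other results for the 4 genes together and for the companion lists moved by at most 1.5 times.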
